A study of Mus musculus with 44 samples.

Results

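The Ddx and Dhx genes encode the DEAD-box and DEAH-box RNA helicases, and every gene of the table whose symbol starts with Ddx or Dhx followed by a digit was taken as a member, whatever its level. This gave 29 of 8203 genes, of which 21 were Ddx and 8 were Dhx genes. The RNA came from Crh-TRAP mice, a cross of Crh-Cre mice with mice that carry a Cre-dependent eGFP-L10a, in which a tagged ribosomal protein marks cells that express or once expressed Cre from the Crh promoter. Tagged ribosomes were pulled down from 1 mm punches centered on the amygdala (TRAP). A value is thus a level of RNA in the pulldown of a single mouse, and no input RNA was analysed here. The mice were aged 10 to 16 weeks, carried both transgenes and were sacrificed 2 h after their last session.

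The tone alone group (TA, 16 mice) heard 5 tones with the shock generator off. The fear conditioned group (FC, 12 mice) received 5 pairings of a tone with a 0.65 mA shock. The extinction group (EXT, 16 mice) received the same 5 pairings and, on the next day, 30 tones without shock in a new context, so that extinction training and the extra day since conditioning cannot be told apart. TA and EXT held 10 males and 6 females each and FC held 6 of each sex. Batches 1, 2 and 5, as the labels number them without saying what a batch is, held all groups, whereas batch 3 (5 mice) and batch 4 (1 mouse) held EXT mice only.

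RNA helicases use ATP to unwind short RNA duplexes or to strip proteins from RNA, and most steps in the life of an mRNA need at least one of them. DEAD-box members mostly act locally on short duplexes, in ribosome assembly, export and translation, while DEAH-box members include the enzymes that drive the spliceosome through its cycle. In neurons some of them also take part in packing mRNA into transported or silenced granules, a step that feeds local translation at synapses.

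The members were measured at a median of 953 reads in the median mouse, the lowest member value being 84 reads and the highest 7890. Effective library sizes ran from 12802113 to 20440351 reads, with a median of 18015590 in TA, 16977973 in FC and 15412341 in EXT. EXT had the lowest median within each of batches 1, 2 and 5 as well. The summed level of 7 central amygdala marker genes, Crh among them, lay between 965 and 2677 cpm (reads scaled to a common library size) in TA and between 364 and 2226 cpm in EXT. The study kept only genes above a cpm cut in all samples. Every gene of the table, Gad1 and Gad2 among them, was therefore present in every mouse. A gene absent from the table may have failed the cut in only part of the mice. All 6 listed oligodendrocyte markers, all 7 astrocyte markers and 4 of 7 choroid plexus markers were also in the table, the last at a summed 186 to 51048 cpm, and none of 6 microglia markers was. The pulldown thus held transcripts of other cell types beside those of Crh neurons, and fewer cells of a type cannot be told apart from less RNA per cell.

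Set per kilobase of annotated exon, levels in TA spanned a wide range between members. Ddx5 was the highest at 5.39 ± 0.22 log2 cpm per kb (SD, n = 16), followed by Ddx1 at 5.37 ± 0.32 and Ddx24 at 5.15 ± 0.26. These neighbours in the order lay within their own SDs of one another. The lowest were Ddx19b at 1.12 ± 0.31, Ddx17 at 2.12 ± 0.30 and Dhx29 at 2.18 ± 0.35 log2 cpm per kb. Ddx5 and Ddx17, close relatives that act as transcriptional coregulators and in microRNA processing, thus stood at opposite ends of the order. Ddx19b shares much of its sequence with Ddx19a, Ddx39 with Ddx39b and Ddx3x with Ddx3y, and how reads were divided within such pairs is uncertain. Exons of another gene on the opposite strand covered 17.4% of Ddx39 (Adgre5) and 17.4% of Ddx41 (Gm46416), and whether reads were counted by strand is not given in the sources used here.

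Promoter sequence, from the RefSeq table for GRCm38.p6, was found for 26 of the 29 members. In the 250 bases before the start site, the full cAMP response element TGACGTCA, the site bound by CREB, stood in 1 member, Dhx36, and in 1.55% of all 32851 promoters of the table. Its core TGACG, counted also where the full site stood, was found in 10 of 26 members against 17.8% of all promoters. An ETS-type motif CCGGAAG stood in 9 members against 6.91%, the GC box GGGCGG in 14 against 32.7%, and the CCAAT box in 14 against 33.8%, each searched on both strands. The median GC content was 60.2% in the members and 52.4% in all promoters, so these shares are not matched for base composition. A match of letters is not a bound site. The 150 bases before the start are shown for 4 members that are among the 11 with the smallest p values in the comparison of EXT with TA given next, and whose window lay wholly before the annotated gene, 5′ to 3′ along the gene's strand, with the GC box, CCAAT box, TGACG core and ETS motif in capitals in either orientation.
Ddx24 (chr12:103425848-103425997, minus strand): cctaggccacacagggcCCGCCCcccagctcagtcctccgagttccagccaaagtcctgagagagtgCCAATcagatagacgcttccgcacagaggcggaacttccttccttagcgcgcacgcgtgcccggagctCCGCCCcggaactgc
Ddx10 (chr9:53248113-53248262, minus strand): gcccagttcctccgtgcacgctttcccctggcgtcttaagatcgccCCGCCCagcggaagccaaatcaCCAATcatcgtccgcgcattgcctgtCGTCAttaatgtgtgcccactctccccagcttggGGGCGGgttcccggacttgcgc
Ddx42 (chr11:106216776-106216925, plus strand): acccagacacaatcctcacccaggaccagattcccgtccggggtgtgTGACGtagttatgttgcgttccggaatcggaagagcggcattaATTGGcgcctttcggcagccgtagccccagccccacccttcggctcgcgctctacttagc
Dhx16 (chr17:35879628-35879777, plus strand): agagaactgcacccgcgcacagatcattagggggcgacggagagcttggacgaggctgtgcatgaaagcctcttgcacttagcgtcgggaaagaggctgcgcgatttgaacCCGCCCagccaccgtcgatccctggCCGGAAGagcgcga

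In this stretch Ddx24 held 2 GC boxes and 1 CCAAT box, Ddx10 held both of these motifs and a TGACG core, Ddx42 held a TGACG core and a CCAAT box, and Dhx16 held an ETS motif and a GC box.

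Whether helicase levels differed after extinction was asked by comparing EXT with TA. Members were lower in EXT almost throughout: 26 of 29 had a log2 fold change below 0, against 48.5% of all genes, with a median of -0.22 over the members and 0.01 over all genes. In limma with batches as categories and sex in the model, 11 members had an unadjusted p under 0.05, all of them lower, where 11% of all genes were lower at that level. None of the 29 passed an FDR of 0.05, which 0.0244% of all genes did, the smallest adjusted p of a member being 0.143. The 6 EXT mice of batches 3 and 4 have no control mice in their batch and entered this fit only through the sex term and the spread, so the size of the differences rests mainly on 10 EXT mice, with a median over members of -0.22 when the other 6 were left out. Without animal 21 of batch 2 it was -0.15.

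Dhx30, a DEAH-box helicase of mitochondrial RNA granules that is needed for assembly of the mitochondrial ribosome, ranged from 6.49 to 7.38 in TA (median 7.005), from 5.52 to 7.14 in FC (median 6.83) and from 5.58 to 7.19 in EXT (median 6.40), in log2 cpm. It was below every TA mouse in 9 of 16 EXT mice, a count that here and in the following includes mice of batches 3 and 4. Its fold change in EXT vs TA was -0.42 ± 0.13 on the log2 scale (SE), a ratio of 0.746, with an unadjusted p of 0.0022 and a limma adjusted p of 0.143. The difference of means was -0.42, -0.62 and -0.28 within batches 1, 2 and 5. EXT mice were thus lower in each batch that had controls, with overlap between the groups. Ddx28, the other member that acts on the mitochondrial ribosome, had a log2 fold change of -0.20 ± 0.12 (p = 0.093).

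Among the helicases of ribosome biogenesis all 8 measured members, of 16 listed, were lower in EXT and 4 had an unadjusted p under 0.05. Ddx24, an assembly factor of the large ribosomal subunit, ranged from 7.93 to 8.69 in TA (median 8.12), from 7.67 to 8.76 in FC (median 8.11) and from 7.21 to 8.27 in EXT (median 7.83) log2 cpm. As many as 11 of 16 EXT mice lay below every TA mouse. The log2 fold change was -0.32 ± 0.095 (p = 0.0020), yet within batches it was uneven, at -0.54 in batches 1 and 2 and -0.07 in batch 5. In batch 5 EXT (7.84 to 8.14) and TA (7.95 to 8.18) largely overlapped.

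Ddx27, which acts in processing of the large subunit rRNA, was also below every TA mouse in 11 of 16 EXT mice. Its levels ran from 4.62 to 5.07 (median 4.85) in TA and from 3.63 to 4.95 (median 4.40) in EXT, a log2 fold change of -0.30 ± 0.097 (p = 0.0037). Within batches 1, 2 and 5 the difference of means was -0.26, -0.52 and -0.16. Ddx10, a factor of the small subunit, had the lowest fold change of the family at -0.45 ± 0.16 (p = 0.0071), which came from batch 1 (-1.10) and batch 2 (-0.56), with -0.06 in batch 5. Ddx56 had a log2 fold change of -0.21 ± 0.087 (p = 0.024), and without EXT animal 21 it was at -0.15 (p = 0.078). Ddx47, Ddx50, Ddx52 and Ddx55 had fold changes between -0.07 and -0.06, none with an unadjusted p under 0.05.

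Of the 7 spliceosome members, 6 were lower in EXT and 3 had an unadjusted p under 0.05. These were Ddx42, which associates with the branch site complex (log2 fold change -0.23 ± 0.087, p = 0.011), Dhx38, which remodels the spliceosome before its second step (-0.32 ± 0.12, p = 0.013), and Dhx16, which activates it for the first (-0.37 ± 0.17, p = 0.042). All of them were lower in EXT within batches 1, 2 and 5. Dhx15, which takes the spent spliceosome apart (-0.31, p = 0.075), Ddx46, which acts as the spliceosome first assembles (-0.25, p = 0.11), and Ddx39b, which loads both splicing and export factors (-0.23, p = 0.083), had similar sizes and an unadjusted p above 0.05. Single mice counted for much here: without EXT animal 21, Dhx16 was at -0.23 (p = 0.15), Ddx46 at -0.12 and Ddx39b at -0.14, and without EXT animal 26, Dhx15 was at -0.15. Ddx41 was the exception, at 0.07 (p = 0.44).

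The members that act on mRNA in the cytoplasm were mixed. Dhx29, which helps the small ribosomal subunit along structured 5′ leaders, ranged from 4.36 to 5.74 in TA (median 4.71), from 3.96 to 5.27 in FC (median 4.44) and from 3.67 to 5.01 in EXT (median 4.40), and 8 of 16 EXT mice lay below every TA mouse. Its log2 fold change was -0.33 ± 0.12 (p = 0.0084). Dhx36, which unwinds G-quadruplexes, had a log2 fold change of -0.28 ± 0.13 (p = 0.038), and without EXT animal 26 it was at -0.22 (p = 0.11). Ddx3x, a helicase of translation initiation encoded on the X chromosome, had a log2 fold change of -0.20 ± 0.16 (p = 0.23). Ddx6, the P-body helicase that represses translation and promotes decapping, was not lower (0.05, 95% interval -0.16 to 0.27).

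The export helicases showed small differences, with -0.11 for Ddx25, -0.10 for Ddx39 and 0.07 for Ddx19b, and no unadjusted p under 0.05. The pair Ddx5 and Ddx17 had fold changes of -0.25 (p = 0.10) and -0.06 (p = 0.71), the latter turning to 0.09 when batch 2 was left out. Among the rest, Ddx1, part of the tRNA ligase complex, had a log2 fold change of -0.22 ± 0.10 (p = 0.042), Dhx40 had -0.23 ± 0.11 (p = 0.054) and Dhx32 had -0.03 (p = 0.71). Without EXT animal 52 Ddx1 was at -0.17 (p = 0.11). Sizes were modest throughout, with no member below -0.45 or above 0.07.

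**Figure D1:**
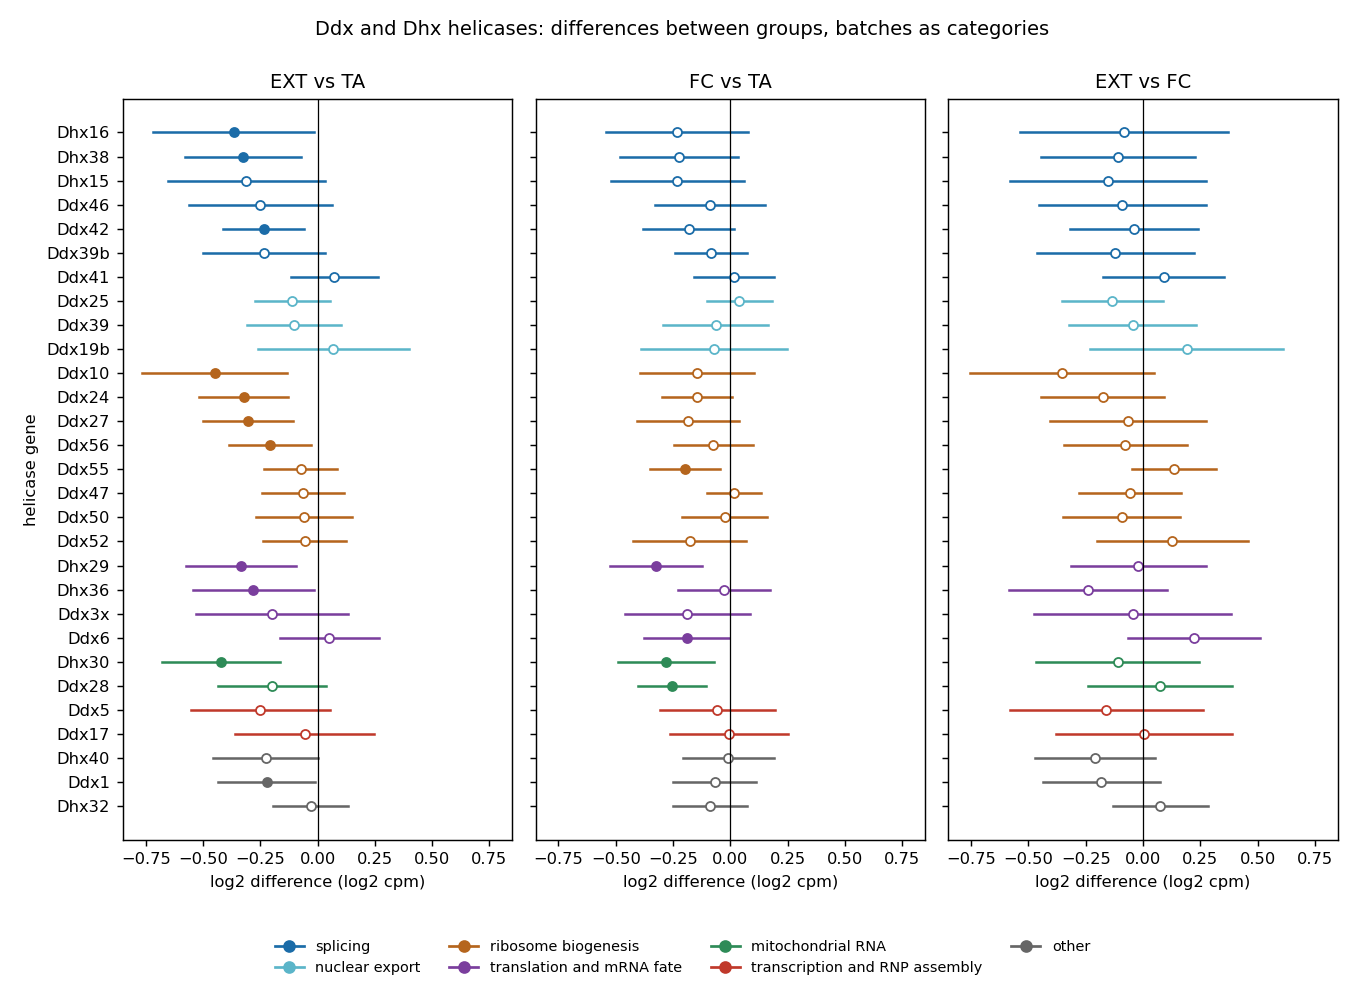
Log2 fold change of each of the 29 helicases (rows, grouped and coloured by role) in EXT vs TA, FC vs TA and EXT vs FC, from limma with batches as categories and sex. Points are estimates, lines 95% intervals and filled points mark p values below 0.05 before adjustment. EXT vs TA has 11 filled points and FC vs TA has 5, all left of 0, and EXT vs FC has 0.

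The batch coding mattered for what passed the threshold. With batch entered as a number instead of as categories, so that EXT mice of batches 3 and 4 enter the difference, 14 of 29 members passed an FDR of 0.05 in EXT vs TA, as did 21.4% of all genes. Of these members 13 were lower, where 11% of all genes were, and 1 was higher, where 10.4% were. The lowest adjusted p was 0.013, shared by Dhx30 (-0.59 ± 0.12), Ddx24 (-0.48 ± 0.11) and Ddx27 (-0.39 ± 0.092). The others that fell in this fit were Dhx29, Ddx39b, Dhx36, Dhx16, Ddx5, Dhx38, Ddx46, Ddx56, Ddx3x and Dhx15, with log2 fold changes between -0.61 and -0.22. The member that rose was Ddx6, at 0.40 ± 0.14 (adjusted p = 0.045). Ddx1, Ddx10 and Ddx42, which had an unadjusted p under 0.05 with batches as categories, did not pass here. At an unadjusted p under 0.05 this coding had 21 members, 20 of them lower, beside 37.8% of all genes. With no batch term 12 members passed the FDR, beside 19.7% of all genes.

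When batches 3 and 4 were instead left out, with categories kept, Dhx30 (-0.41, adjusted p = 0.034), Ddx24 (-0.32, adjusted p = 0.040) and Ddx27 (-0.30, adjusted p = 0.045) passed in limma, beside 4.99% of all genes. Leaving out a single mouse of batch 3, animal 23 (EXT replicate 3), gave the same count of 3 members, beside 5.75% of all genes. That mouse had the highest Dhx30 (7.19) and Ddx24 (8.12) of batch 3, where the other mice lay at or below 6.09 and 7.50. The sizes of the differences hardly moved, whereas the SE of Dhx30 went from 0.13 to 0.098 without batches 3 and 4. Over all the alternatives tried, the adjusted p of each of these 3 genes ran from 0.013 to 0.88.

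**Figure D2:**
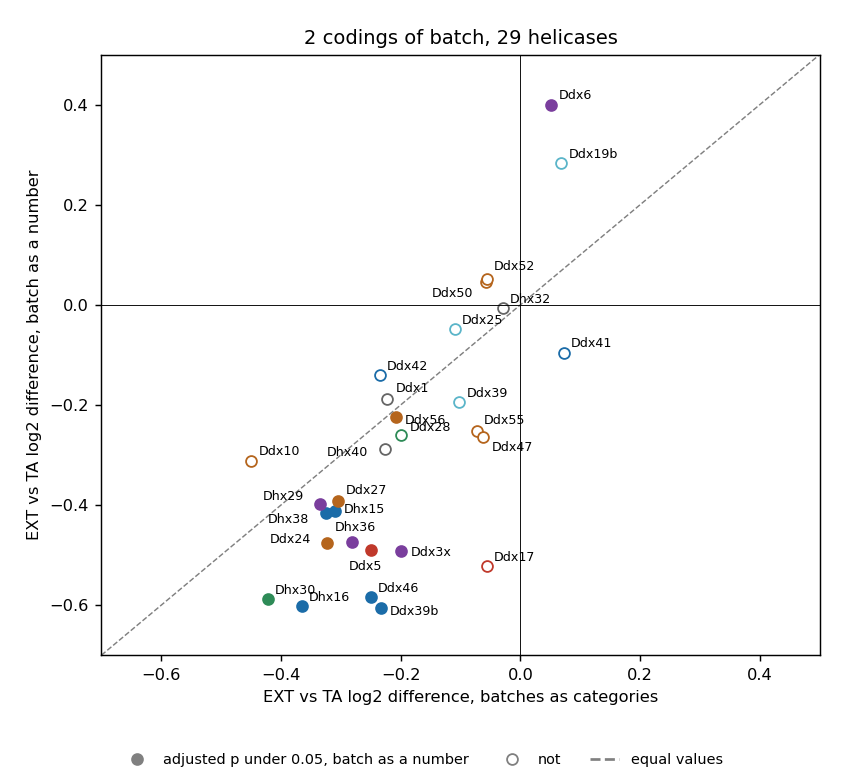
EXT vs TA log2 fold change of each helicase with batches as categories (horizontal axis) and with batch as a number (vertical axis), coloured by role as in the plot of fold changes. Filled points passed an FDR of 0.05 with batch as a number (14 of 29), and the points furthest below the dashed line of equal values are Ddx17, Ddx39b, Ddx46 and Ddx3x.

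The EXT mice of batches 3 and 4 differed from the other EXT mice in mean helicase levels, though not every mouse did. Of the 29 members 20 had a lower mean in these 6 mice than in the 10 EXT mice of batches 1, 2 and 5, where 49.8% of all genes did. Ddx17 lay between 3.31 and 4.55 (median 3.47) log2 cpm in them and between 4.06 and 5.42 (median 5.12) in the other EXT mice, a difference of means of -1.21. Ddx39b lay between 4.53 and 6.31 against 5.56 and 6.60, a difference of -1.01, and 5 of the 6 mice were below every other EXT mouse.

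Ddx46 (-0.86), Ddx3x (-0.77) and Ddx5 (-0.66) followed, and Ddx6 went the other way. Ddx6 ran from 6.48 to 7.21 in these mice and from 5.70 to 6.81 in the other EXT mice, a difference of 0.91, with 4 of 6 above every other EXT mouse. Ddx19b was higher by 0.56, with full overlap. Animal 23 of batch 3 went against the means of Ddx3x (6.95) and Ddx5 (8.21), lying above every EXT mouse of batches 1, 2 and 5. Among those other EXT mice, animal 21 of batch 2 had the lowest Ddx17 (4.06) and the highest Ddx6 (6.81).

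Other measures moved with these mice. The summed level of 7 transcripts used as a sign of RNA quality, Malat1 and 6 mitochondrially encoded mRNAs, was 4929 to 32040 cpm (median 22192) in them, against 228 to 23915 (median 539) in the other EXT mice and 86.6 to 3111 in TA. Central amygdala markers summed to 364 to 779 cpm against 508 to 2226. Oligodendrocyte markers summed to 4137 to 13167 cpm against 1805 to 4291. Their part in the helicase levels was not tested, and because no TA or FC mouse was in these batches, batch and group cannot be told apart there.

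**Figure D3:**
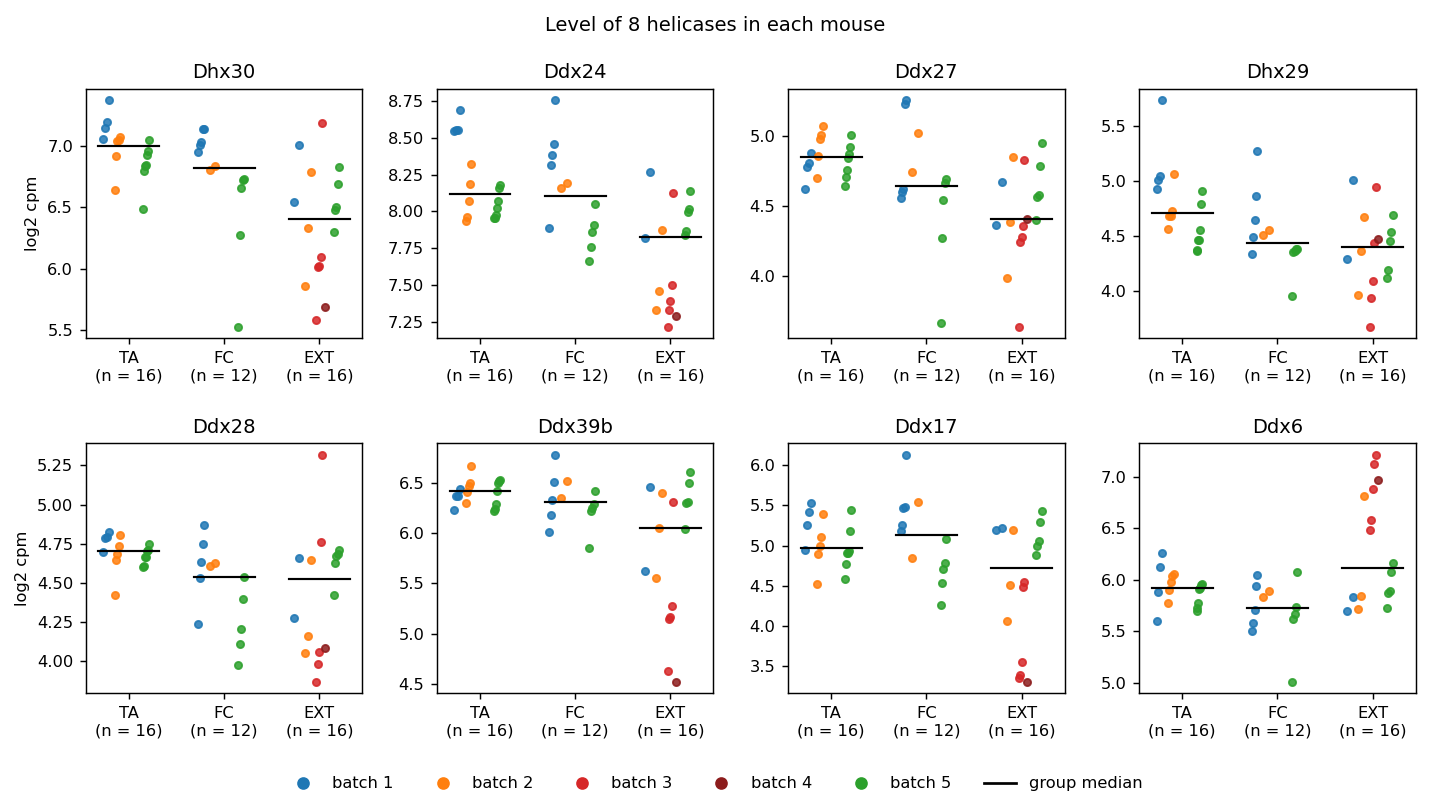
Log2 cpm of 8 helicases in each of 44 mice by group, coloured by batch, with the group median as a black line. EXT mice of batches 3 and 4 (red and dark red) include the lowest values of Ddx17 and Ddx39b and the highest of Ddx6, while for Dhx30, Ddx24 and Ddx27 EXT mice of shared batches also lie below the TA median.

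Within the batches that held all groups, the direction of the family in EXT vs TA was the same each time. Members with a lower mean in EXT than in TA numbered 22 in batch 1, 26 in batch 2 and 24 in batch 5, of 29. In all 3 batches 17 of 29 members, or 58.6%, were lower, against 19.3% of all genes, and no member was higher in all of them. The size differed, however, with a median over the members of -0.28 in batch 1 (2 EXT and 4 TA mice), -0.37 in batch 2 (3 and 5) and -0.06 in batch 5 (5 and 7). In batch 5 the direction was thus the same and the size smaller. These means were not adjusted for sex, and both EXT mice of batch 1 were female. When batch 2 was left out of the fit, 2 members had an unadjusted p under 0.05 in place of 11, beside 10.9% of all genes in place of 21.1%, while 22 members were lower and their median was -0.13.

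**Figure D4:**
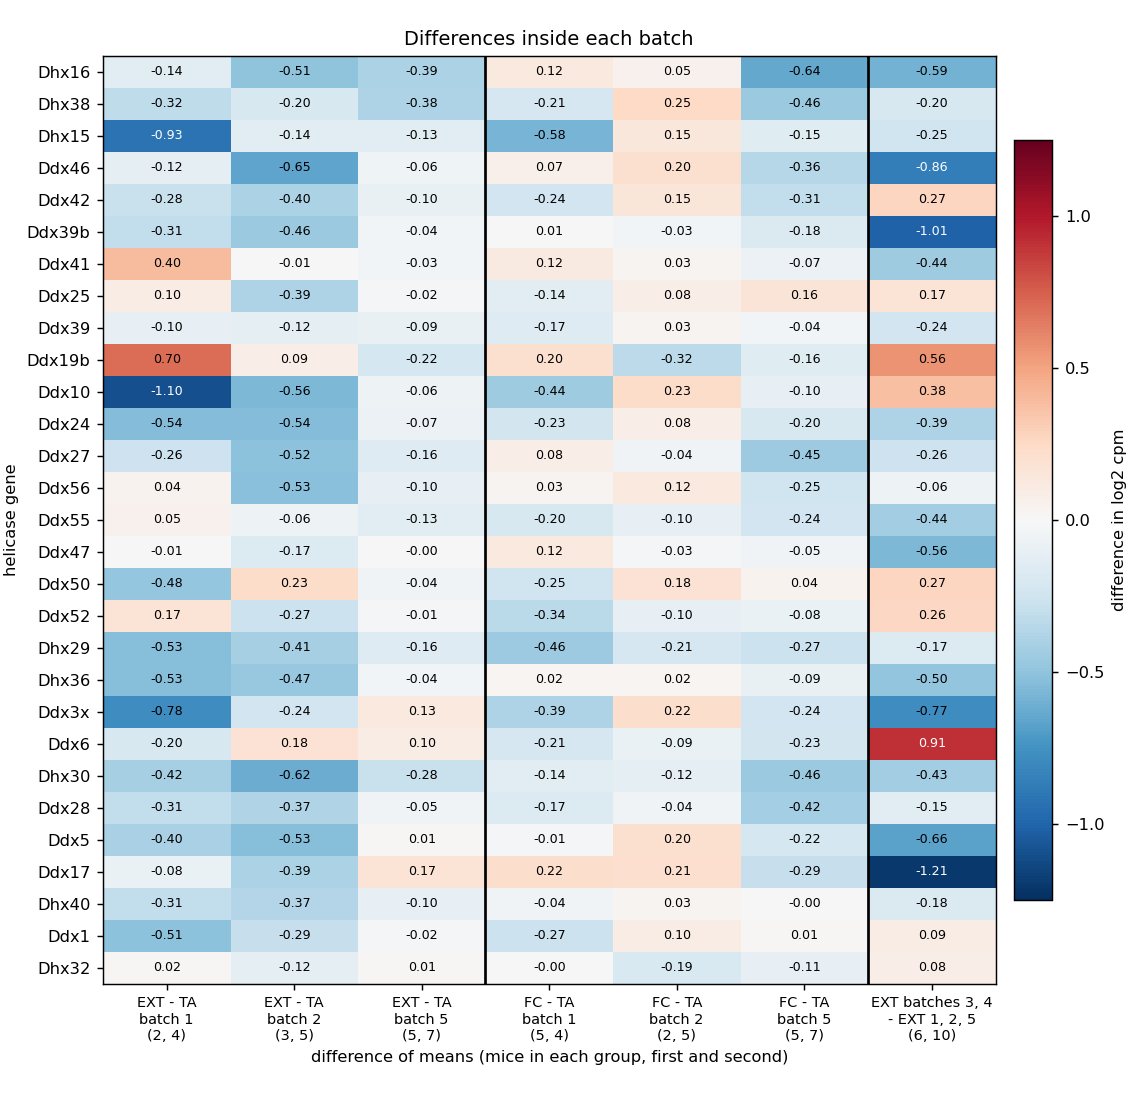
Difference in mean log2 cpm of each helicase within batches 1, 2 and 5 for EXT minus TA and FC minus TA, and between EXT mice of batches 3 and 4 and those of batches 1, 2 and 5 (last column), blue being lower. Mice in the first and second group stand under each column. EXT minus TA is below 0 in 22, 26 and 24 of 29 rows of batches 1, 2 and 5, with medians of -0.28, -0.37 and -0.06, and in batch 5 Dhx16 (-0.39), Dhx38 (-0.38) and Dhx30 (-0.28) are still blue.

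Single mice showed how far the pattern was shared. Each FC or EXT mouse of batches 1, 2 and 5 was set against the TA median of its own batch, gene by gene. In EXT, between 8 (animal 24) and 29 (animal 52) of the 29 members lay below that median, and 8 of 10 mice had more members below it than above. In FC the range was 11 (animal 43) to 26 (animal 13). For all genes the share below the median stayed between 46.3% and 55.9% in every one of these mice. In 2 mice of each group more members lay above the median than below it. Members measured in one mouse share its library and are not independent of one another. The same count was not made for TA mice. How far a control mouse departs from the median of its batch is thus not shown, and counts of FC and EXT mice cannot be set against it.

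**Figure D5:**
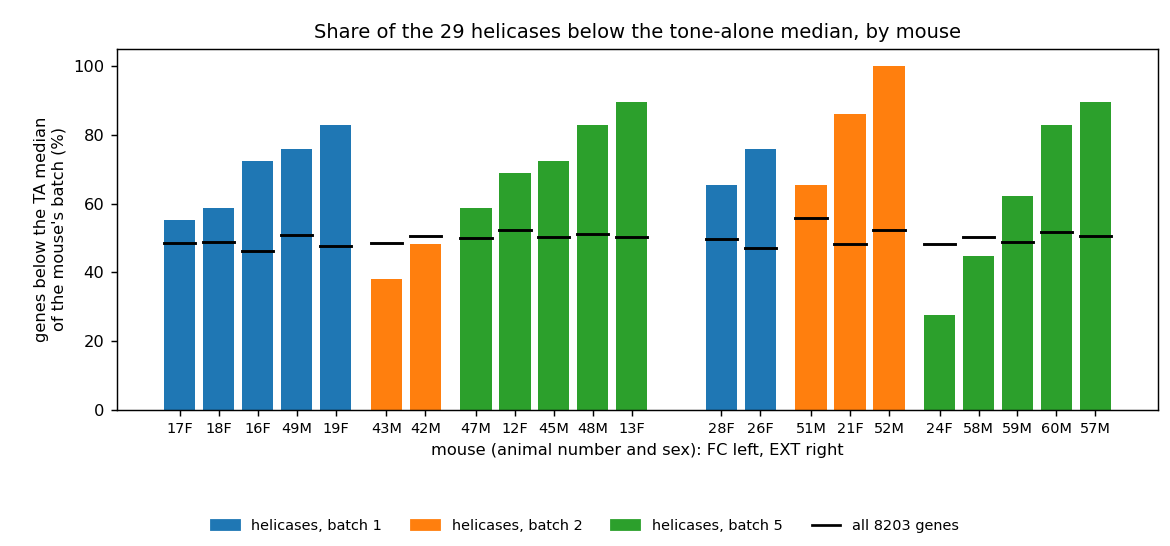
Share of the 29 helicases below the TA median of the mouse's own batch (bars, in percent) for each FC and EXT mouse of batches 1, 2 and 5, with the share over all 8203 genes as a black line. Animals 24 (27.6%) and 58 (44.8%) of EXT and animals 43 (37.9%) and 42 (48.3%) of FC fall below the line, and the other bars rise above it.

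Library size moved with the groups, and its part was examined with one fit. With log2 library size as an added covariate, the comparison of EXT with TA had 4 members with an unadjusted p under 0.05 (Ddx24, Dhx30, Ddx10 and Dhx29), and the median over members was -0.12. In that fit 4.68% of all genes were at this level.

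Whether helicase levels already differed after conditioning was asked by comparing FC with TA, which uses the same TA mice. Again 26 of 29 members were lower, against 51% of all genes, with a median of -0.09. In limma 5 members had an unadjusted p under 0.05, all lower, where 8.2% of all genes were lower at that level. No member and 0% of all genes passed an FDR of 0.05, the smallest adjusted p of a member being 0.118.

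Both mitochondrial members were among the 5. Ddx28 lay between 4.42 and 4.82 in TA (median 4.70) and between 3.98 and 4.87 in FC (median 4.54) log2 cpm, with 5 of 12 FC mice below every TA mouse. Its log2 fold change was -0.25 ± 0.072 (p = 0.0016), and that of Dhx30 was -0.28 ± 0.10 (p = 0.010). For both, the difference was greatest in batch 5, at -0.42 for Ddx28 and -0.46 for Dhx30, and small in batch 2, at -0.04 and -0.12. Without FC animal 47 Dhx30 was at -0.18 (p = 0.016).

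Dhx29 had a log2 fold change of -0.33 ± 0.098 in FC (p = 0.0025), beside -0.33 ± 0.12 in EXT, with differences of means of -0.46, -0.21 and -0.27 in batches 1, 2 and 5. Ddx55, of ribosome biogenesis, had a log2 fold change of -0.20 ± 0.074 (p = 0.013) and Ddx6 one of -0.19 ± 0.090 (p = 0.044), beside -0.07 and 0.05 in EXT vs TA. Without FC animal 45 Ddx6 was at -0.12 (p = 0.13). Ddx24 (-0.15, p = 0.061), Ddx42 (-0.18, p = 0.073) and Dhx38 (-0.22, p = 0.086) had intervals that reached past 0. By role, 6 of 7 splicing, 2 of 3 export, 7 of 8 ribosome biogenesis and all 4 translation members were lower in FC.

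Within batches the FC differences were less even than those of EXT. Members with a lower mean in FC than in TA numbered 19 in batch 1, 11 in batch 2 and 26 in batch 5, and 7 of 29, or 24.1%, were lower in all of them, against 16.8% of all genes. These differences of means were not adjusted for sex, and sex was not balanced across batches, so the 2 cannot be told apart in them. Batch 2 held 2 FC mice, both male. Leaving out one of them, animal 43 (FC replicate 8), raised the members with an unadjusted p under 0.05 from 5 to 8, beside 17.4% of all genes in place of 16.8%. With batch as a number 4 members were at this level, beside 10.4% of all genes.

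Cell type markers were compared in the same fits. Gad1 and Gad2, the enzymes that make GABA, had log2 fold changes of -0.42 (p = 0.0049) and -0.24 (p = 0.014) in EXT vs TA and of -0.19 (p = 0.047) and -0.21 (p = 0.021) in FC vs TA. Of the 7 central amygdala markers all were below 0 in EXT vs TA, with a median of -0.20 and no unadjusted p under 0.05, and 5 were in FC vs TA, with Pdyn at -0.71 (p = 0.0047). All 7 transcripts used as a sign of RNA quality were above 0 in both, with medians of 0.60 and 0.36 and no unadjusted p under 0.05.

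Markers of other cell types were read from the same fits. In FC vs TA all 7 astrocyte and all 6 oligodendrocyte markers had fold changes above 0, with medians of 0.49 and 0.31, and all 4 choroid plexus markers were lower, with a median of -0.95. An unadjusted p under 0.05 was found for 3 of the astrocyte and 2 of the choroid plexus markers. Summed choroid plexus markers ranged from 673 to 19373 cpm in FC and from 187 to 27465 in TA. In EXT vs TA 5 of 7 astrocyte, all 6 oligodendrocyte and all 4 choroid plexus markers were lower, with medians of -0.06, -0.12 and -0.45. With batches as categories no marker of any list passed the FDR in either comparison. With batch as a number all 7 RNA quality transcripts passed it in EXT vs TA, all higher (median 2.25), beside 10.4% of all genes. Gad1, Gad2 and 3 of 7 central amygdala markers passed as well, all lower, beside 11% of all genes. No astrocyte, oligodendrocyte or choroid plexus marker did. The part of these markers in the helicase levels was not tested.

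EXT vs FC asks directly whether helicases differed between the 2 shocked groups. Here 21 of 29 members were lower in EXT, against 46.8% of all genes, with a median of -0.08. No member had an unadjusted p under 0.05 in limma with batches as categories, where 4.19% of all genes did, and none passed the FDR. The smallest p values were those of Ddx10 (-0.35, 95% interval -0.75 to 0.05, p = 0.082), Dhx40 (-0.21, -0.47 to 0.05, p = 0.11) and Ddx6 (0.22, -0.07 to 0.51, p = 0.13). Ddx55 (0.14), Ddx1 (-0.18) and Dhx36 (-0.24) came next. These values moved with single mice. Without EXT animal 26 Ddx10 was at -0.22, Dhx40 at -0.12 and the median over members at -0.0070, and without EXT animal 21 Ddx6 was at 0.14. Ddx10 went to -0.45 (p = 0.025) without FC animal 13, Dhx40 to -0.29 (p = 0.033) without EXT animal 28, and the median over members to -0.13 without FC animal 13.

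The intervals were wide beside these sizes, that of Dhx30 running from -0.47 to 0.25 around a fold change of -0.11. Batches went opposite ways: 20 and 24 of 29 members were lower in EXT than in FC in batches 1 and 2, and 6 of 29 in batch 5. With batch as a number 8 members had an unadjusted p under 0.05, 6 lower and 2 higher, beside 19.3% of all genes, and none passed the FDR. A lower level in EXT than in FC was thus not shown for any helicase.

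Whether males and females differed was tested with a group by sex term. In EXT vs TA 1 of 29 members had an unadjusted p under 0.05, against 6.02% of all genes. This was Ddx19b, the mRNA export helicase of the nuclear pore, with an interaction of -0.59 ± 0.28 (p = 0.042, limma adjusted p = 0.82). When each sex was fitted alone, with its own batch terms, its log2 fold change was -0.29 in males and 0.58 in females. Such separate fits need not differ by the size of the interaction. EXT animal 21, a female, had the highest Ddx19b of all mice (5.13 log2 cpm). Without this mouse the EXT vs TA fold change of Ddx19b went from 0.07 to -0.05, and the interaction was not refitted without it. In FC vs TA 1 of 29 had an interaction with an unadjusted p under 0.05, against 9.62% of all genes. This was Ddx50, a nucleolar helicase, with an interaction of 0.41 ± 0.17 (p = 0.020, adjusted p = 0.43). In the fits of each sex alone Ddx50 was at 0.17 in males and -0.28 in females. No member passed the FDR in either test. Of the FC vs TA interactions 21 of 29 were above 0 (median 0.12), where 4355 of 8203 genes were below 0. In females alone 24 members were lower in FC (median -0.20), beside 3893 of 8203 genes. In males alone 19 were (median -0.06), beside 4379 genes. The FC females came from batches 1 and 5 only, so sex and batch cannot be fully told apart here. Of the EXT vs TA interactions 19 of 29 were below 0 (median -0.09), beside 4553 genes.

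RNA helicases outside the Ddx and Dhx names were examined in the same fits, 13 of 19 listed genes being in the table. In EXT vs TA 11 of 13 were lower, with a median of -0.17, and 5 had an unadjusted p under 0.05, all lower, where 48.5% of all genes were lower and 11% were lower at that level. They were Aqr (-0.50 ± 0.14, p = 0.0014) and Snrnp200 (-0.43 ± 0.21, p = 0.048) of the spliceosome, Upf1, the helicase of nonsense-mediated decay (-0.52 ± 0.18, p = 0.0068), and the exosome helicases Skiv2l2 (-0.41 ± 0.14, p = 0.0072) and Skiv2l (-0.27 ± 0.12, p = 0.032). None passed the FDR. With batch as a number the direction was mixed, 7 of 13 being lower, and 4 passed the FDR, as did 21.4% of all genes. These were Upf1 (-0.60), Skiv2l2 (-0.38), Eif4a3 (-0.37) and Eif4a1 (-0.30), all lower, while Aqr was at -0.22 (p = 0.16) and Skiv2l at 0.03. In FC vs TA 7 of 13 were lower, beside 51% of all genes, Upf1 (-0.56 ± 0.17, p = 0.0030) and Aqr (-0.36 ± 0.16, p = 0.029) with an unadjusted p under 0.05, while Eif4a2, the translation initiation helicase, was higher by 0.21 ± 0.066 (p = 0.0038). In EXT vs FC 11 of 13 were lower, beside 46.8% of all genes, none with an unadjusted p under 0.05.

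Proteins that activate or hold helicases were examined as well, with 25 of 37 listed genes in the table. In EXT vs TA 22 of 25 were lower, with a median of -0.10, and 2 had an unadjusted p under 0.05, where 48.5% of all genes were lower and 11% were lower at that level. These were Edc3 (-0.40 ± 0.12, p = 0.0025), which binds Ddx6 in P-bodies, and Tfip11 (-0.41 ± 0.13, p = 0.0040), which activates Dhx15. With batch as a number 15 of 25 were lower and 6 fell past the FDR, as did 11% of all genes: Tfip11 (-0.60), Edc3 (-0.53), Thoc5 (-0.43), Alyref (-0.40), Eif4h (-0.40) and Rbm10 (-0.27). In FC vs TA 19 of 25 were lower, against 51% of all genes, 6 of them with an unadjusted p under 0.05, against 8.2%. Eif4g1 (-0.49 ± 0.12, p = 0.00022) and Eif4g3 (-0.30 ± 0.073, p = 0.00028), the scaffolds that hold Eif4a in the initiation complex, led these with a limma adjusted p of 0.090 each, followed by Edc3, Eif4b, Thoc5 and Tfip11. Grsf1, of mitochondrial RNA granules, was higher by 0.15 (p = 0.031). In EXT vs FC 14 of 25 were lower, against 46.8% of all genes, and 1 had an unadjusted p under 0.05, against 4.19% in either direction. This was Thoc2, of the export complex that recruits Ddx39b, at -0.30 (p = 0.028). No cofactor passed the FDR in any comparison with batches as categories.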

How the data were processed

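The deposited table holds log2 values for 8203 genes in 44 mice. Per the study's methods and processing notes, the authors trimmed reads with Trimmomatic 0.36, aligned them to GRCm38 with STAR, and normalized and filtered gene counts with edgeR and limma. The deposited values are log2 cpm, that is log2 of read counts scaled by library size (voom form). Whole reads were solved for 360932 of 360932 values (tolerance 0.01 read, offset 0.5), which gave the effective library sizes. Depth limits the low members most, and p-values set a difference between groups against the spread between mice.

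Each pair of groups was fitted alone with limma 3.58.1 (lmFit, eBayes; R 4.3.3), batches as categories and sex in the model, two-sided, with Benjamini-Hochberg adjustment over all 8203 genes and an FDR of 0.05. The study controlled for batch and sex, and how it coded batch is not given in the sources used here, so batch as a number was an alternative. Scripts were tested on simulated data. Exon lengths and positions came from GENCODE M21, promoters from RefSeq (GRCm38.p6).

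The members and lists were chosen with earlier results of these data known. Named genes were those past the FDR in either batch coding, the 12, 6 and 6 of smallest p in EXT vs TA, FC vs TA and EXT vs FC, close pairs, Ddx3x, Dhx30, the extremes of level and the smallest interaction p. The other members are given by role. Alternatives were other batch terms, scalings, filters, weights, offsets, library size and leaving out batches or single mice. Protein sequences were not used here.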

Additional observations from a re-analysis of the deposited data

How the results depend on the processing

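In EXT vs TA the count of members past the FDR was 0, and became 14 with batch as a number, 12 with no batch term (as did 19.7% of all genes) and 3 without batches 3 and 4. The cause of these changes was not tested. Members with an unadjusted p under 0.05 numbered 11, beside 21.1% of all genes. With batch as a number there were 21 (37.8% of all genes), and with no batch term 21 (2980 of 8203 genes). The count was 2 without batch 2 (10.9%) and 4 with library size as a covariate (4.68%). Among the 18 members with a mean log2 value of at least 5 it was 6, beside 1426 of 5731 genes. Of these 18 members 16 were lower. In FC vs TA members at this level went from 5 (16.8% of all genes) to 1 without batch 5 (764 of 8203 genes). Of those 18 members 2 were at this level, beside 1070 of 5731 genes, and 15 were lower. In EXT vs FC they went from 0 (4.19% of all genes) to 8 with batch as a number (19.3%). With no batch term there were 6 (1482 of 8203 genes). The count was 1 without batch 1 (449 genes), 4 without batch 5 (461 genes) and 1 with library size (376 genes). The members that were lower went from 21 to 11 without batch 2 (3824 of 8203 genes) and 13 with library size (3968 genes). The sex interaction in EXT vs TA had 0 members at that level with batch as a number, beside 339 of 8203 genes. Other scalings, a robust variance model, voom weights and an offset of 2 reads moved none of these member counts by over 1.5 times.

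With batches as categories and all mice kept, no member passed the FDR, so no value could lose it under an alternative. A value whose unadjusted p rose, as in the fit without batch 2, counts as kept below unless its sign changed. The tally thus does not show how stable the unadjusted p values were. Of 451 values of named genes under alternatives, 416 kept direction and side of the FDR threshold, 29 newly passed the FDR and 6 changed sign. The last were Ddx17 (0.089 without batch 2), Ddx19b (-0.10 without batch 1), Ddx3x (0.019 with library size) and Ddx6 (-0.0049 without batch 5) in EXT vs TA, and Ddx55 in EXT vs FC (-0.12 with batch as a number, -0.14 with no batch term).

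Leaving out each mouse in turn gave 0 to 3 members past the FDR in EXT vs TA, 8 to 13 with an unadjusted p under 0.05 and 25 to 27 lower, the 3 being reached without animal 23 only. For FC vs TA the ranges were 0 to 0, 4 to 8 and 21 to 27, and for EXT vs FC 0 to 0, 0 to 1 and 18 to 22. The median over members ran from -0.25 to -0.15 (without animal 21), from -0.13 (without animal 43) to -0.084, and from -0.13 (without animal 13) to -0.0070 (without animal 26). Over these fits Ddx17 ran from -0.11 to 0.036, Ddx19b from -0.051 to 0.15 and Ddx6 from -0.040 to 0.092 in EXT vs TA. No paired analysis was possible, because each animal number stands for a separate mouse in 1 group only. The numbers run in blocks by group and sex. Animals 22, 25, 44 and 53, all of batch 3, carry a group or sex label that departs from their block. Whether these labels are right was not tested.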
